A study of Mus musculus with 8 samples.

Results

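Osteoclasts, the cells that resorb bone and mineralised dentin, form from myeloid precursors under the control of mesenchymal neighbours. The mesenchymal cells display or release RANKL, encoded by Tnfsf11, which binds the receptor RANK, encoded by Tnfrsf11a, on the precursor, while osteoprotegerin (OPG), encoded by Tnfrsf11b, is a soluble decoy that captures RANKL. CSF1 and IL34 keep the precursors alive through a shared receptor, the product of Csf1r. In the growing tooth this system opens the eruption path through the jaw bone, and the dental follicle around the tooth is a known source of CSF1 and of RANKL; in osteoblasts, Tnfrsf11b is a known target of beta-catenin. The genes described here are 9 of the 56748 in the count table: these 5 regulators and 4 osteoclast markers, namely Acp5 (tartrate-resistant acid phosphatase), Ctsk (cathepsin K, a collagen-degrading protease) and the fusion genes Dcstamp and Ocstamp. They were chosen by name, and all of them were matched to a gene identifier.

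The samples were tdTomato-positive cells sorted from lower-jaw molars of mice at postnatal day 10, after tamoxifen at day 3. In 4 libraries, labelled cKO, the genotype is Ctnnb1(-/-), and in the other 4, labelled cHet, it is Ctnnb1(+/-). The controls thus carry tamoxifen, the tdTomato marker and 1 altered copy of the beta-catenin gene too. The labels call the cells CXCL12+ apical papilla cells, the tissue dental pulp and, in the protocol, dental follicle cells. The labels name no Cre driver, deleted exon, sex or batch, and they do not say whether each library is 1 animal, so a p-value here reflects how much the libraries differ from each other, which may be a technical spread.

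The libraries held 44444033 to 50051392 counted reads each. Pairs of one group correlated at 0.882 to 0.942 in log2 CPM (counts scaled to the library's size), and pairs of different groups at 0.858 to 0.943. Ctnnb1 ranged from 229 to 313 CPM in cKO and from 209 to 304 CPM in cHet; the count covers the whole gene, so it does not check the deletion, and group names are those of the labels. Cxcl12, which names the sorted population, rose 5.54-fold in cKO, with 491 to 1001 CPM in cKO and 66.4 to 268 CPM in cHet (adjusted p = 0.0497). That call is marginal: the adjusted p was 0.0549 with RLE factors, 0.0523 with library size alone, 0.0578 with libraries scaled to the sum of a mesenchyme marker list (mesenchyme scaling) and between 0.101 and 0.159 when cKO7, cKO14, cKO15, cHet11, cHet12 or cHet14 was left out. Transcripts of other cell types were plentiful: the dental epithelial marker list summed to between 4643 and 8673 CPM in cKO and between 2551 and 11710 in cHet, and the olfactory neuron list to between 5587 and 6941 CPM in cKO and between 6160 and 11794 in cHet. At an unadjusted p under 0.05, 1 of 8 epithelial and 4 of 8 olfactory markers were lower in cKO, where 6.33% of all tested genes were lower. Of both lists edgeR called none and DESeq2 called 1 epithelial marker lower. The olfactory count of 4 was 0 without cKO15, cHet11 or cHet14, 1 without cKO14 or cHet12, 7 without cHet8 and 6 with library size alone, and the epithelial count was 0 without cHet11 and 2 without cKO9.

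Promoter windows from RefSeq (build GRCm38.p6, while the counts were made on GRCm39) were available for 5 of the 9 genes: Tnfsf11, Tnfrsf11a, Csf1, Ctsk and Acp5, which has 3 windows. Tnfsf11 is printed because it had the largest fitted difference of the 7 members that were tested. Csf1 and Ctsk are printed because their lowest and highest values fell in the same libraries. Acp5 had its lowest and highest values in those libraries too, but its 3 windows are not printed. Each window runs from 250 bases before to 50 bases after the annotated start, 5′ to 3′ on the gene's own strand. Capitals mark the TCF/LEF core CTTTGA, the sequence through which beta-catenin's partner factors bind DNA; the RUNX core TGTGGT and the AP-1 site TGANTCA were searched too, on both strands.
Tnfsf11, chr14:78307994-78308293, minus strand: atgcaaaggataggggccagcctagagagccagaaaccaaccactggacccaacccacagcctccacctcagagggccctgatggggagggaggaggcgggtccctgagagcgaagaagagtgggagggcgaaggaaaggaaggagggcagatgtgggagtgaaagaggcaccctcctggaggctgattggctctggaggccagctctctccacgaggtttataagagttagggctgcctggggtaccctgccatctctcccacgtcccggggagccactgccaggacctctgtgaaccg
Csf1, chr3:107760420-107760719, minus strand: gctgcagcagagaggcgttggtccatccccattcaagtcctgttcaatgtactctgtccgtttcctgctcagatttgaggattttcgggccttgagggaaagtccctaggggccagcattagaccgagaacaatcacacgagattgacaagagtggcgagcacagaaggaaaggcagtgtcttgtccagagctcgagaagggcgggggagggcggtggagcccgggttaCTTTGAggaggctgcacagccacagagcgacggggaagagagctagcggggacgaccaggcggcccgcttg
Ctsk, chr3:95498960-95499259, plus strand: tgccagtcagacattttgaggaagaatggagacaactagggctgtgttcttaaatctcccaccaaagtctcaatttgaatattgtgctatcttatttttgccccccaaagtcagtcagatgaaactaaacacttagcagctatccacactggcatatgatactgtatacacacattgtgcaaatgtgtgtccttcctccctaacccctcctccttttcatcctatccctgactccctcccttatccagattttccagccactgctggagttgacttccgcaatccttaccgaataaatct

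The Csf1 window holds CTTTGA once, at position 230 of the window, shortly before the start. One of the Acp5 windows holds it once on the opposite strand, at position 12. None of the 7 windows of these genes holds TGTGGT or TGANTCA, and the windows of Tnfsf11, Tnfrsf11a and Ctsk hold no CTTTGA. Over all 32851 mouse promoter windows, 16% hold CTTTGA, 16.8% TGTGGT and 7.81% TGANTCA. The matches are letters in a window and do not show binding.

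None of the 9 genes passed the test over all genes. The default expression filter kept 7 of them, and edgeR called none of these at an adjusted p under 0.05, where 1.13% of the 21508 tested genes were called (1.08% higher and 0.0558% lower in cKO). At an unadjusted p under 0.05, 3 were higher (Tnfsf11, Csf1 and Ctsk) and 1 was lower (Tnfrsf11a) in cKO, where 17.1% of all tested genes reached that value, 10.8% higher and 6.33% lower. DESeq2 called Tnfsf11 and Csf1 higher and Tnfrsf11a lower, while it called 14.3% of the genes to which it gave an adjusted p, 9.46% higher and 4.82% lower.

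Of the 7 genes that the filter kept, the RANKL gene had the largest fitted difference. Tnfsf11 (ENSMUSG00000022015) had 6.76, 1.16, 4.45 and 9.50 CPM in the libraries cKO7, cKO9, cKO14 and cKO15. It had 0.135, 1.02, 0.382 and 1.58 CPM in cHet8, cHet11, cHet12 and cHet14. All but cKO9 of the cKO libraries lay above every cHet library, so the groups overlapped through 1 library. The means were 5.47 ± 3.53 CPM in cKO and 0.779 ± 0.650 CPM in cHet (SD, n = 4 each). The fitted change was 7-fold (log2 2.81, SE 0.86, unadjusted p = 0.0106, adjusted p = 0.161). These levels rest on few reads, between 52 and 404 per cKO library and between 7 and 73 per cHet library. DESeq2 gave an adjusted p of 0.00540, whereas edgeR gave a log2 change of 3.14 without cKO9 (adjusted p = 0.0697), of 2.40 without cKO15 (adjusted p = 0.376) and of 1.03 with libraries scaled to mesenchymal transcripts (adjusted p = 0.337).

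The OPG gene did not follow it. Tnfrsf11b (ENSMUSG00000063727) had 14.0, 9.20, 27.9 and 32.5 CPM in cKO7, cKO9, cKO14 and cKO15, against 33.4, 9.69, 26.6 and 31.2 CPM in cHet8, cHet11, cHet12 and cHet14. Each group spanned about the same range, and the lowest and highest values of both groups lay close together. The log2 change was −0.27 (SE 0.48, adjusted p = 0.837), and an SE of this size leaves room for a moderate change in either direction.

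**Figure D1:**
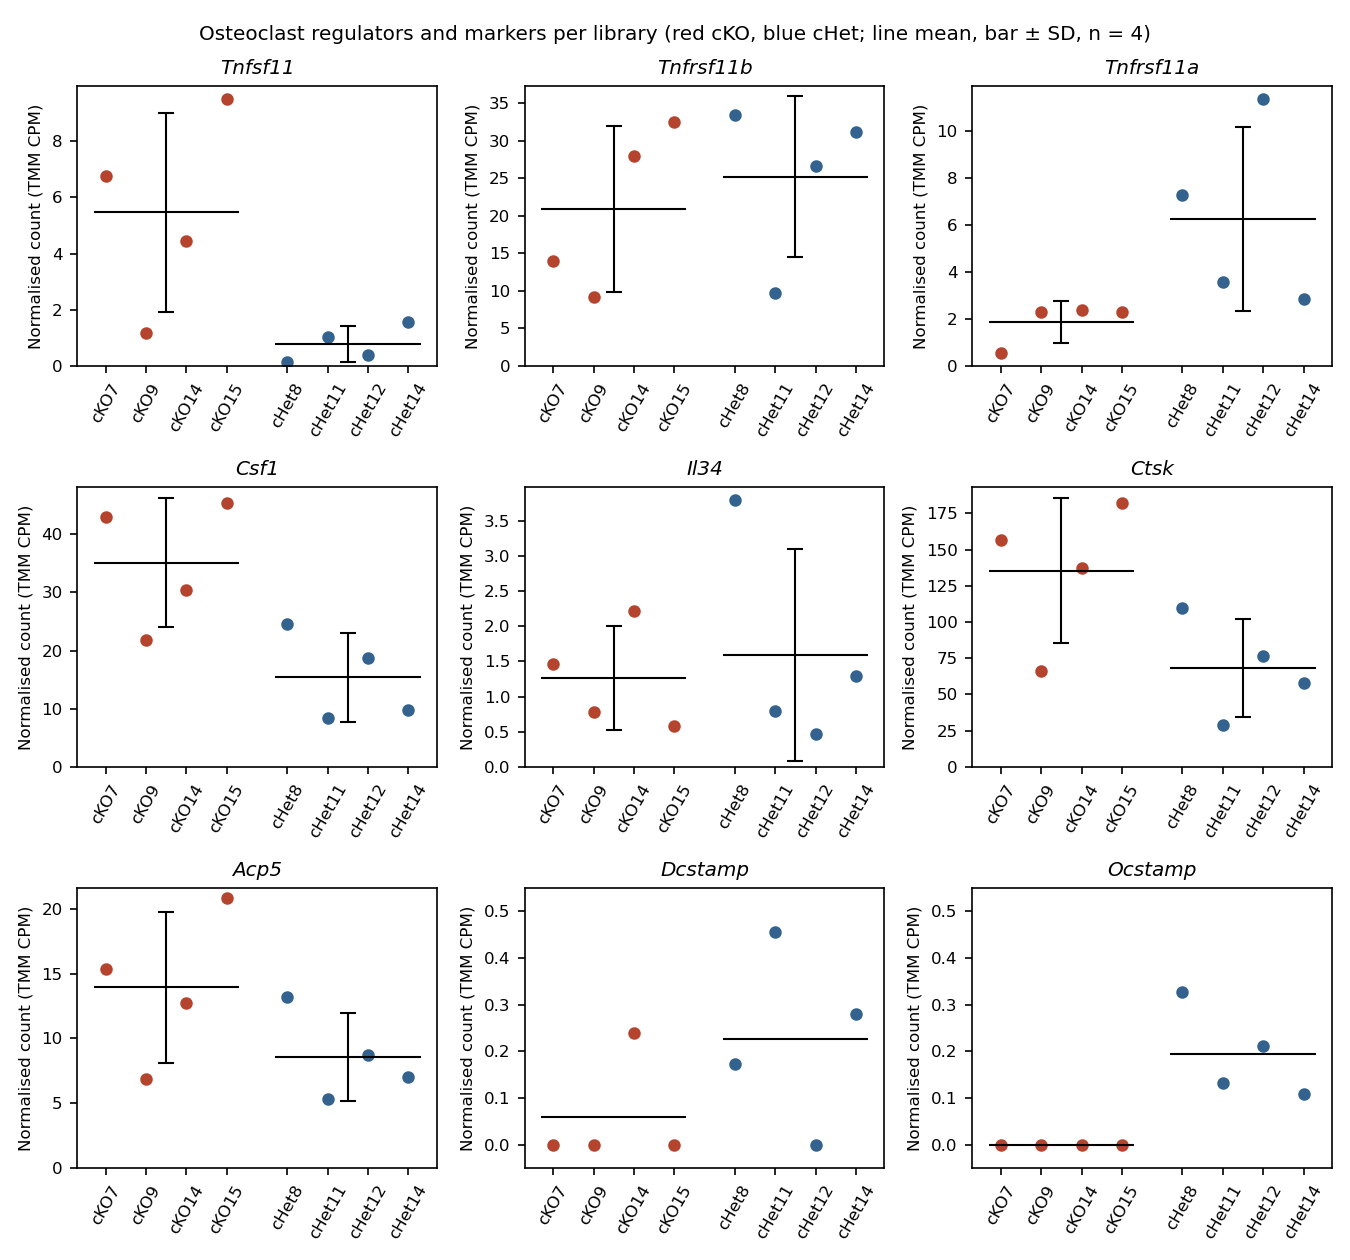
Normalised counts (CPM with TMM factors, vertical axes) of the 9 genes in each library, with cKO in red on the left and cHet in blue on the right; lines are group means and bars ± SD over 4 libraries (no bars for Dcstamp and Ocstamp). Tnfsf11 reaches 9.50 CPM in cKO15 while no cHet library exceeds 1.58 CPM, the Tnfrsf11b groups overlap, and Ocstamp is at 0 in all 4 cKO libraries.

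The balance of agonist and decoy was compared within each library, as a ratio that no scaling between libraries can change. For every 100 Tnfrsf11b reads there were 48.1 Tnfsf11 reads in cKO7, 12.8 in cKO9, 16.0 in cKO14 and 29.2 in cKO15. The corresponding numbers were 0.433 in cHet8, 10.7 in cHet11, 1.47 in cHet12 and 5.09 in cHet14. Every cKO library lay above every cHet library, with a narrow gap between cKO9 and cHet11. The mean log2 ratio was −2.11 ± 0.87 in cKO and −5.37 ± 2.03 in cHet, a difference of 3.25, or 9.54-fold between geometric means. An exact two-sided permutation test over the 70 assignments of libraries gave p = 0.0286, the smallest this design allows, and 0.0571 after Benjamini-Hochberg adjustment over the 2 ratios tested, so the difference did not pass after adjustment. The spread within cHet was large: leaving out cHet8, which has only 7 Tnfsf11 reads, lowered the difference to 2.43 on the log2 scale.

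Per kilobase of exon, with gene lengths from a GRCm38 annotation, the OPG transcript was the more abundant of the pair in both groups. Mean levels were 7.43 CPM per kb for Tnfrsf11b and 2.45 for Tnfsf11 in cKO. In cHet they were 8.95 CPM per kb for Tnfrsf11b and 0.349 for Tnfsf11.

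**Figure D2:**
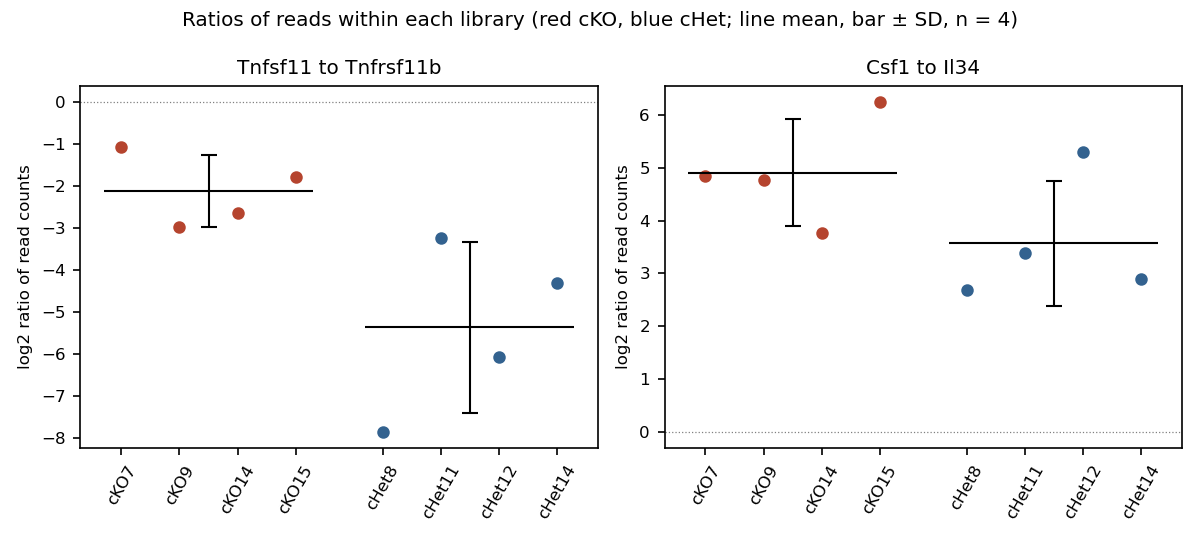
log2 ratios of read counts within each library (vertical axes) for Tnfsf11 to Tnfrsf11b and for Csf1 to Il34; cKO red, cHet blue, lines group means, bars ± SD over 4 libraries. The Tnfsf11 to Tnfrsf11b ratios lie between −2.97 and −1.05 in cKO and between −7.85 and −3.23 in cHet, and the Csf1 to Il34 ratios overlap.

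The 2 ligands of the CSF1 receptor differed from one another. Csf1 (ENSMUSG00000014599) had 42.9, 21.8, 30.4 and 45.4 CPM in cKO7, cKO9, cKO14 and cKO15, against 24.6, 8.46, 18.8 and 9.72 CPM in cHet8, cHet11, cHet12 and cHet14. The groups overlapped through cKO9 and cHet8. The means were 35.1 ± 11.1 CPM in cKO and 15.4 ± 7.67 CPM in cHet, a 2.28-fold difference (log2 1.19, SE 0.39, unadjusted p = 0.0149, adjusted p = 0.184). DESeq2 gave an adjusted p of 0.0213.

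Il34 (ENSMUSG00000031750) had 1.47, 0.783, 2.22 and 0.588 CPM in the cKO libraries in the same order, against 3.80, 0.797, 0.467 and 1.30 CPM in the cHet libraries. The groups overlapped throughout (log2 −0.33, SE 0.72, adjusted p = 0.869), and the sign of the difference turned when cHet8 was left out (log2 0.57). Per kilobase of exon Csf1 stood above Il34 in both groups, at 6.65 and 0.646 CPM per kb in cKO and at 2.91 and 0.811 CPM per kb in cHet. The log2 ratio of Csf1 to Il34 reads averaged 4.91 ± 1.01 in cKO and 3.57 ± 1.19 in cHet, and the groups overlapped (exact permutation p = 0.171, also after adjustment).

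Of the osteoclast markers, the ones with the most reads, Ctsk and Acp5, were also higher on average in cKO, without passing the test. Which cells gave the reads of Ctsk and Acp5 was not tested. Ctsk (ENSMUSG00000028111) had 157, 66.0, 137 and 182 CPM in cKO7, cKO9, cKO14 and cKO15, against 110, 28.8, 76.3 and 58.1 CPM in cHet8, cHet11, cHet12 and cHet14 (log2 0.99, SE 0.43, unadjusted p = 0.0470, adjusted p = 0.283). Acp5 (ENSMUSG00000001348) had 15.3, 6.87, 12.7 and 20.8 CPM in the same cKO libraries, against 13.2, 5.35, 8.69 and 7.04 CPM in the cHet libraries (log2 0.70, SE 0.40, adjusted p = 0.415). Both sets of values overlapped between groups. Ctsk in cKO9 lay below cHet8 and cHet12. Acp5 in cKO9 lay below cHet8, cHet12 and cHet14, and in cKO14 it lay below cHet8.

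The fusion genes, which are more restricted to osteoclasts and their precursors, behaved differently. Ocstamp (ENSMUSG00000027670) had no read in any cKO library, against 17, 7, 10 and 5 reads in cHet8, cHet11, cHet12 and cHet14. With a floor of 3 counts over the cKO group, which allows up to 0.0168 CPM, its pooled level was at least 11.7-fold lower in cKO than the 0.197 CPM of cHet. The filter removed it, so it has no value in the fit. Without a filter edgeR gave an adjusted p of 0.133. Dcstamp (ENSMUSG00000022303) had 11 reads in cKO14 and 0 in the other cKO libraries, against 9, 24 and 13 reads in cHet8, cHet11 and cHet14 and 0 in cHet12. Its groups overlapped, and without a filter its adjusted p was 0.616. Reads were amplified without molecular tags, so these few reads need not be separate molecules and the floor covers counting error only.

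RANK, the receptor on the precursor side, was lower on average in cKO. Tnfrsf11a (ENSMUSG00000026321) had 0.557, 2.28, 2.39 and 2.31 CPM in cKO7, cKO9, cKO14 and cKO15, against 7.28, 3.57, 11.4 and 2.85 CPM in cHet8, cHet11, cHet12 and cHet14. Every cKO library lay below every cHet library, and this was the sole tested gene of the 7 without overlap, where 10.1% of all tested genes had none. The means were 1.88 ± 0.89 CPM in cKO and 6.27 ± 3.92 CPM in cHet (log2 −1.73, SE 0.60, unadjusted p = 0.0192, adjusted p = 0.202). DESeq2 gave an adjusted p of 0.0271. Leaving out cHet12 gave a log2 change of −1.28 (adjusted p = 0.360).

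Markers of other cell types moved beside these genes. The 16 macrophage markers, Csf1r among them, summed to 442, 156, 394 and 199 CPM in cKO7, cKO9, cKO14 and cKO15, against 1149, 546, 3884 and 250 CPM in cHet8, cHet11, cHet12 and cHet14. All 16 had a negative log2 change (median −1.58). Of these 13 had an unadjusted p under 0.05, where 6.33% of all tested genes were lower at that value. None was called by edgeR, while DESeq2 called 8 lower, where it called 4.82% of genes lower. The number at an unadjusted p under 0.05 was 2 without cHet12, 4 without cKO15, 5 without cKO9, 8 without cHet8 and 3 with limma voom. The libraries with the most Tnfrsf11a, cHet12 and cHet8, also had the highest macrophage sums. In cKO the highest sum was in cKO7, which had the least Tnfrsf11a. Lyz2 weighed heavily in these sums, at 2455 CPM in cHet12, 436 in cHet8, 199 in cKO7 and 94.2 in cKO14. Lyz2, Aif1, Fcer1g, Spi1, Cd14 and Itgam were higher in cKO7 than in cKO14, and the other macrophage markers were lower. Adgre1, C1qa, C1qb, C1qc and Mrc1 were highest in cHet8, and the other macrophage markers in cHet12. Neutrophil markers summed to between 23.7 and 1287 CPM in cKO and between 50.9 and 18436 CPM in cHet, the highest again in cHet12. Of 5 tested neutrophil markers edgeR called none, 4 were lower at an unadjusted p under 0.05 and DESeq2 called 2 lower. The 4 became 0 with limma voom and 0 when cKO9, cKO14, cKO15 or cHet12 was left out, and without cHet12 the median log2 change was −1.99 in place of −4.74. Elane, a neutrophil marker that the filter removed, was at 0 in all cKO libraries. The part of these cells in the values of Tnfrsf11a and Ocstamp was not tested, and in bulk samples fewer cells of a type and less RNA per cell cannot be told apart.

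Mesenchymal transcripts moved the other way. The 13 mesenchyme markers summed to 16744, 13720, 20165 and 27208 CPM in cKO7, cKO9, cKO14 and cKO15, against 11514, 3541, 12074 and 8168 CPM in cHet8, cHet11, cHet12 and cHet14. Of these markers 11 had a positive log2 change (median 1.49). Where edgeR called 1.08% of all tested genes higher, it called 2 of these markers higher, the transcription factor gene Prrx1 and the fibrillin gene Fbn1. This count was 0 with RLE factors, with mesenchyme scaling and when cKO7, cKO14, cKO15, cHet11, cHet12 or cHet14 was left out, 1 with library size alone and 6 without cKO9, and DESeq2 called 8 higher and 1 lower. The proteoglycan genes Dcn and Lum, named after their values were seen, had log2 changes of −1.04 and −0.66 (adjusted p = 0.257 and 0.545). The collagen genes Col3a1, Col1a1 and Col1a2, also named after their values were seen, weighed heavily in the sums. They had 10915, 7181 and 5202 CPM in cKO15 and 1125, 863 and 813 CPM in cHet11. Mesenchyme scaling uses the same 13 genes, so it rests largely on these collagen genes. Csf1, Ctsk, Acp5 and the mesenchyme sum all had their lowest value in cHet11 and their highest in cKO15. Set against the mesenchyme sum of each library, a scaling in which the median log2 change of all tested genes was −1.41, the log2 change was 0.01 for Csf1, −0.17 for Ctsk and −0.59 for Acp5, so the signs of Ctsk and Acp5 turned. On the same scale it was 1.03 for Tnfsf11, −1.51 for Tnfrsf11b and −2.86 for Tnfrsf11a, and no gene was called. Osteoblast markers summed to between 560 and 1289 CPM in cKO and between 492 and 1104 CPM in cHet, endothelial markers to between 8.30 and 29.2 CPM in cKO and between 15.8 and 24.2 CPM in cHet, and lymphocyte markers to between 0.691 and 12.6 CPM in cKO and between 2.01 and 8 CPM in cHet. Of these 3 lists edgeR called no gene (1 osteoblast marker higher and 1 endothelial marker lower at an unadjusted p under 0.05), and DESeq2 called 1 osteoblast marker higher.

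**Figure D3:**
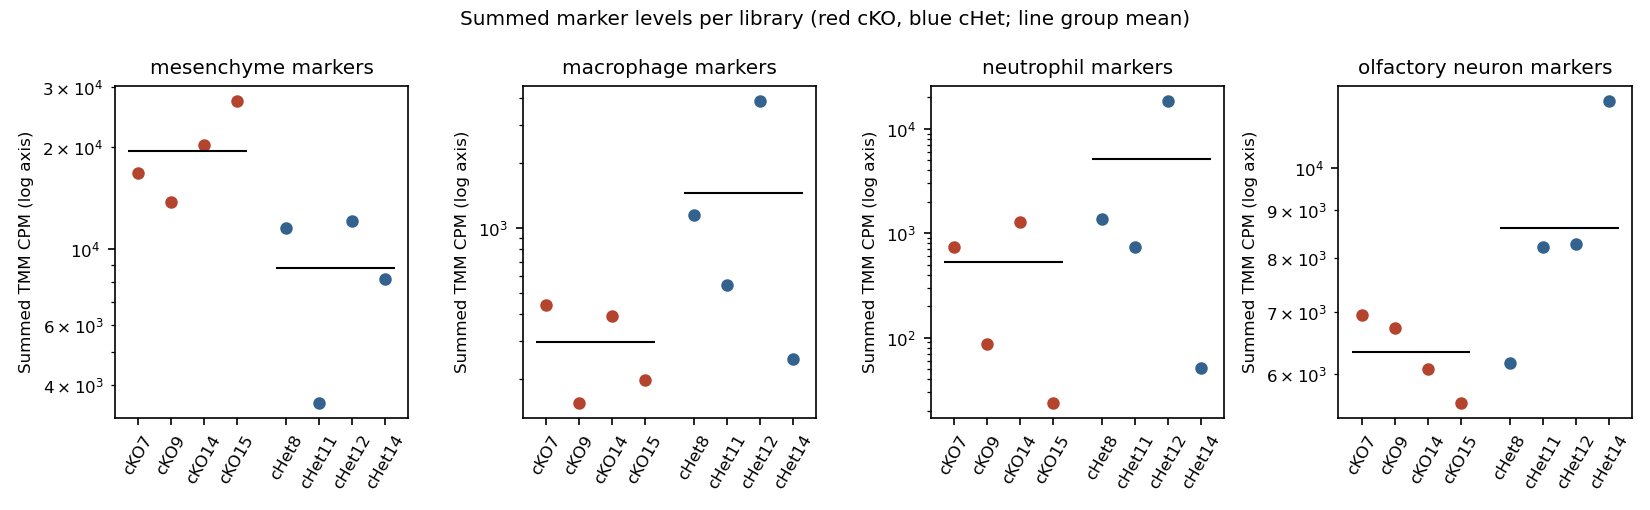
Summed normalised counts (CPM, log axes) of mesenchyme, macrophage, neutrophil and olfactory neuron markers in each library; cKO red, cHet blue, lines group means. The mesenchyme sums do not overlap between groups (13720 CPM or more in cKO, 12074 CPM or less in cHet). The highest macrophage and neutrophil sums are in cHet12, 3884 and 18436 CPM, and Lyz2 alone gives 2455 CPM of that macrophage sum.

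The wider osteoclast programme showed no gene called by edgeR. Of 15 listed genes for osteoclast differentiation and resorption 13 were tested and 0 were called by edgeR. Of the 13, 6 had a positive log2 change, and the median was −0.39, beside −0.03 over all tested genes. At an unadjusted p under 0.05, 4 of the 13 were lower in cKO and none higher, where 6.33% of all tested genes were lower. By edgeR the lower count was 3 without cKO7, cKO15 or cHet12. It was 5 without cHet14, without a filter or with library size alone. Without cHet12, 1 gene of the list was higher. DESeq2 called 3 lower, where it called 4.82% of genes lower. The smallest p-values belonged to Car2, carbonic anhydrase 2, which supplies acid for resorption (79.4 CPM in cKO and 115 CPM in cHet, log2 −0.53, adjusted p = 0.161), and to Snx10, a sorting nexin needed for osteoclast function (45.6 CPM in cKO and 69.0 CPM in cHet, log2 −0.60, adjusted p = 0.163). The groups of both genes did not overlap, where 10.1% of all tested genes had no overlap. Nfatc1, the transcription factor that RANK signalling switches on in precursors, averaged 124 CPM in cKO and 171 CPM in cHet (log2 −0.46, adjusted p = 0.202). The osteoclast genes Calcr and Siglec15 were removed by the filter, and Siglec15 had no read in any cKO library. No library exceeded 0.828 CPM of Calcr, 0.149 of Siglec15, 0.605 of Oscar or 3.64 of Atp6v0d2. The log2 changes of Oscar, Atp6v0d2 and Itgb3, named after their values were seen, were −0.70, −1.69 and 0.69 (adjusted p = 0.867, 0.605 and 0.529). Which cells gave the reads of Car2, Snx10 and Nfatc1 was not tested. Clcn7 and Tcirg1, which encode the chloride transporter and the proton pump subunit used for acid secretion, had log2 changes of 0.03 and 0.31. Mmp9 had a range of 31.2 to 82.3 CPM in cKO and 35.7 to 899 CPM in cHet, the highest in cHet12. It was 1 of the 4 genes lower at an unadjusted p under 0.05 (log2 −2.32). Clcn7, Tcirg1 and Mmp9 are named after their values were seen.

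Signalling genes of RANK and the CSF1 receptor had log2 changes of both signs. None of 14 was called by edgeR (median log2 change 0.02). At an unadjusted p under 0.05, 2 were higher and 5 lower, where 10.8% of all tested genes were higher and 6.33% lower. DESeq2 called 2 higher and 4 lower, where it called 9.46% of genes higher and 4.82% lower. Fos, an AP-1 subunit that osteoclast precursors need but that most cells also induce on stress, had between 1899 and 5733 CPM in cKO and between 864 and 1860 CPM in cHet (log2 1.52, SE 0.37, adjusted p = 0.0913). Relb, a subunit of the alternative NF-kappaB pathway, averaged 16.9 CPM in cKO and 8.68 CPM in cHet (log2 0.96, adjusted p = 0.122). Fcer1g, a myeloid adaptor that is also in the macrophage list, averaged 10.4 CPM in cKO and 69.4 CPM in cHet (log2 −2.74, adjusted p = 0.172). Without cKO9, 2 genes of the list were called higher, and the number lower at an unadjusted p under 0.05 was 1 without cHet12, cKO9 or cKO15, 3 without cKO7 and 0 with limma voom.

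Genes that drive RANKL expression were examined next, with 17 of 17 tested and 0 called by edgeR (median log2 change 0.60). At an unadjusted p under 0.05, 7 were higher and 2 lower, where 10.8% of all tested genes were higher and 6.33% lower. DESeq2 called 5 higher and 1 lower, where it called 9.46% of genes higher and 4.82% lower. The lower count at an unadjusted p under 0.05 was 6 with library size alone (beside 6 higher) and 6 without cHet14. It was 5 without a filter, and 1 with limma voom and without cKO9, cKO15, cHet8 or cHet12. Without cKO9 edgeR called 1 of the list higher. Vdr, the vitamin D receptor, had between 12.5 and 28.6 CPM in cKO and between 3.38 and 10.5 CPM in cHet (log2 1.51, SE 0.39, adjusted p = 0.111). Il1r1, the interleukin 1 receptor, had between 20.3 and 62.3 CPM in cKO and between 5.58 and 19.4 CPM in cHet (log2 1.69, SE 0.44, adjusted p = 0.111). Il6st, the signal-transducing chain shared by the interleukin 6 family, had between 88.0 and 129 CPM in cKO and between 46.7 and 81.9 CPM in cHet (log2 0.74, adjusted p = 0.127). Of the 17 genes 5 had no overlap between groups, where 10.1% of all tested genes had none. Vdr, Il1r1 and Il6st were among them, and so was Il1a, named after its value was seen, which was lower in cKO (log2 −1.54, adjusted p = 0.195). Named after their values were seen, the parathyroid hormone-related ligand Pthlh and its receptor Pth1r had log2 changes of 1.11 and 0.90 (adjusted p = 0.254 and 0.268), whereas the inflammatory ligands Il1b and Tnf had log2 changes of −2.39 and −1.40 (adjusted p = 0.311 and 0.288). Il1b reached 184 CPM in 1 cHet library.

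Stromal factors that restrain or recruit osteoclast precursors were, by edgeR with all libraries, the sole pathway list of the 4 with called genes. Of 13 tested members 2 rose and none fell (median log2 change 0.34), where 1.08% of all tested genes rose. Cxcl12, which names the sorted population, is 1 of the 2, and the list was chosen with earlier results of these data known. At an unadjusted p under 0.05, 5 of the 13 were higher and 1 lower, where 10.8% of all tested genes were higher and 6.33% lower. DESeq2 called 5 higher, where it called 9.46% of genes higher. Besides Cxcl12, Ephb4, the receptor through which ephrin B2 acts on bone cells, rose 3.64-fold in cKO, with 73.2 to 159 CPM in cKO and 20.9 to 53.7 CPM in cHet (log2 1.86, SE 0.34, adjusted p = 0.0479). Its ligand gene Efnb2 had between 35.2 and 58.8 CPM in cKO and between 11 and 25.0 CPM in cHet (log2 1.19, SE 0.28, adjusted p = 0.0875). The mesenchyme sum was higher beside them, as given above. The count of 2 became 0 with RLE factors, 1 with library size alone, 0 with mesenchyme scaling, 1 without cHet8 and 0 when any other library but cKO9 was left out. With mesenchyme scaling 1 gene of the 4 lists, a stromal one, was higher at an unadjusted p under 0.05. Lower at that value were 8 of 13 tested genes of the osteoclast list and 8 of 14 of the RANK and CSF1 receptor list. So were 6 of 17 RANKL inducers and 5 of 13 stromal factors. Over all tested genes 53.8% reached that value on this scale, 160 of them higher and 11419 lower.

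**Figure D4:**
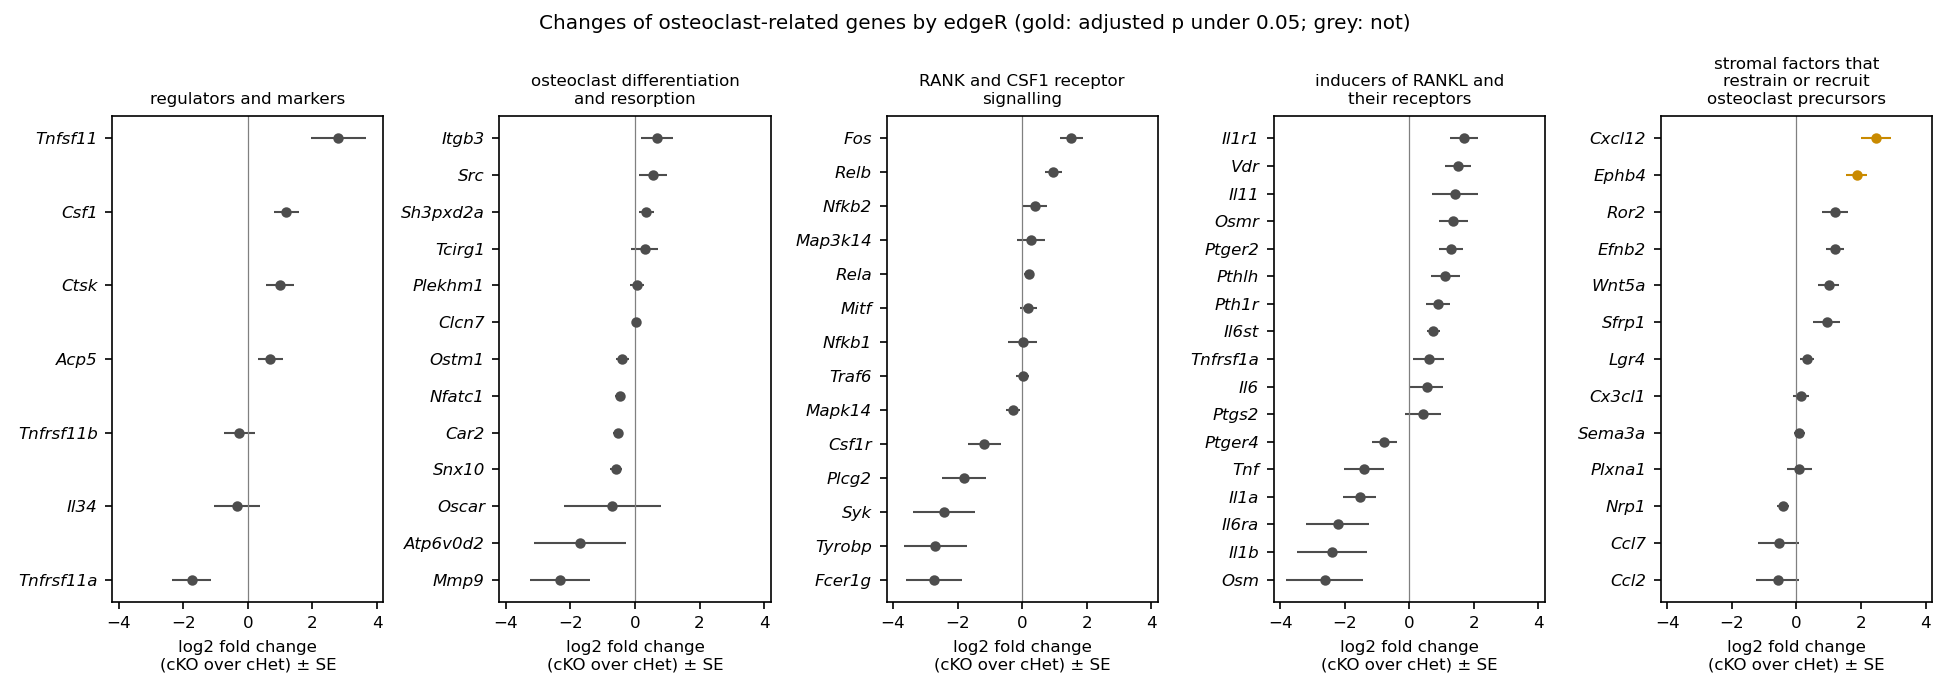
log2 fold changes of cKO over cHet with approximate standard errors (horizontal axes) for the 7 tested regulators and markers and for the tested genes of 4 lists; gold marks an adjusted p under 0.05. Cxcl12 and Ephb4 are the gold points, and the bars of Tnfsf11 (2.81) and Tnfrsf11a (−1.73) lie on opposite sides of 0.

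The genes whose log2 CPM most resembled each regulator over the 8 libraries were picked as the 4 with the highest Pearson r. They came from tested genes whose mean was 5 CPM or more. Genes without a symbol and those with a predicted, mitochondrial or pseudogene symbol were left out. These values are descriptions, picked as maxima over all such genes in the same libraries. For Tnfsf11 they were Adck5 (r = 0.973), Abhd8 (0.969), Hs3st3a1 and Ncs1. For Tnfrsf11b they were Tnfrsf19 (0.969), Crtac1 (0.968), Emp1 and Cdkn2c, and for Tnfrsf11a Cytip (0.959), Kit (0.953), Tec and Tmem62. For Csf1 they were Meis3, Tfpi, St6galnac3 and S1pr2, all between 0.989 and 0.99. Ctsk was followed most closely by Arsb, Dse, Ankrd6 and Flrt3 (0.991 to 0.993), Acp5 by Gng12, Mcm4, Myc and Ddx47 (0.979 to 0.987) and Il34 by Cav1, Shisa4, Sox10 and Cndp2 (0.933 to 0.960).

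**Figure D5:**
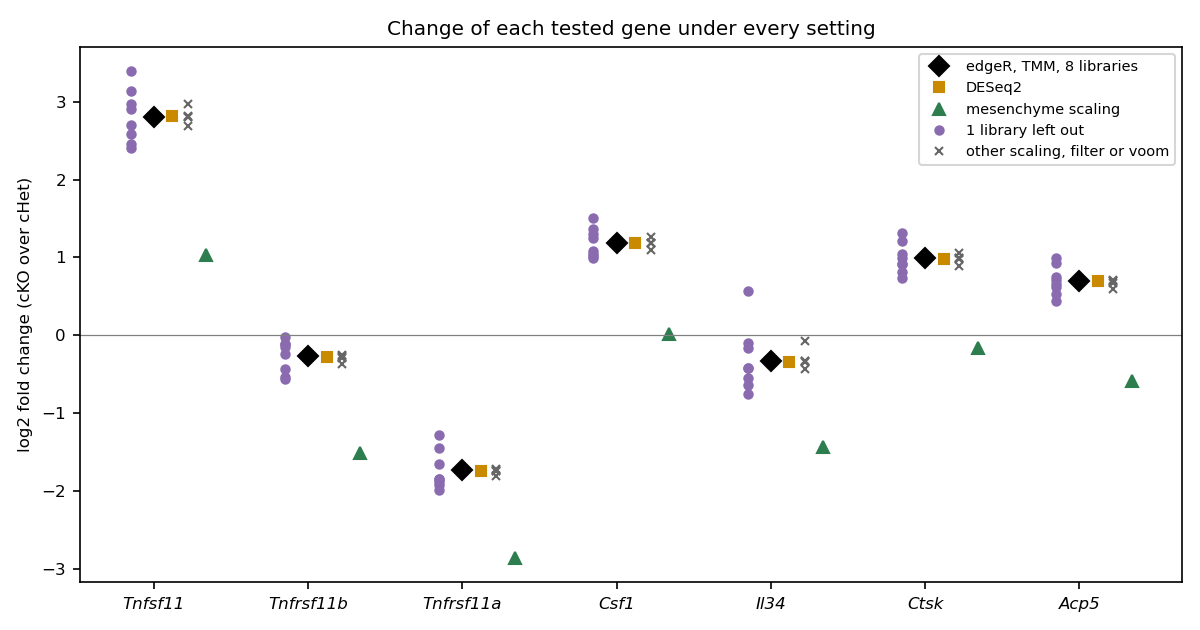
log2 fold changes of cKO over cHet (vertical axis) for the 7 tested genes by edgeR with TMM factors and all 8 libraries (diamonds), DESeq2 (squares), scaling to mesenchymal transcripts (triangles), each library left out (circles) and other scalings, filters and voom (crosses). Tnfsf11 stays between 2.40 and 3.39 when 1 library is left out, and the triangles lie below the other symbols for every gene.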

How the data were processed

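The authors deposited raw whole-number counts per gene with Ensembl identifiers. The tools Trim Galore and STAR and the builds GRCm39 and mm39 come from the submitters' processing notes. For the counting tool, the annotation and tool versions, the sources used here give no entry. The labels' protocols name a SMART-Seq v4 low-input kit, which does not mark strand. Columns were assigned to groups by name; their numbers match no sample title. Of 56748 identifiers, 52073 matched a symbol, and the identifier with the most reads stood for each symbol.

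The comparison of cKO with cHet used edgeR 4.0.16 in R 4.3.3 (TMM factors, default filter, quasi-likelihood F test, genotype as the sole term) and Benjamini-Hochberg adjustment over 21508 tested genes. Tests were two-sided, and genes with an adjusted p under 0.05 were called. Normalised counts are TMM CPM. The standard error is the log2 change divided by the square root of F, an approximation. Ratios used counts plus 0.5. Log values used a prior count of 2. DESeq2 1.42.0, limma voom (3.58.1), other scalings, other filters and omission of each library were alternatives. Named genes were all 9 members, Ctnnb1, Cxcl12, every called gene of a list and, by smallest p, up to 3 per list; others are marked. Members and lists were chosen with earlier results of these data known. The common biological coefficient of variation was 0.553.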

Additional observations from a re-analysis of the deposited data

Results flagged for a closer look

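The value of Tnfrsf11a in cKO7, 0.557 CPM, lay far below the other cKO libraries (2.28 to 2.39 CPM) by Dixon's criterion, with a gap of 0.942 of the group's range. The value of Dcstamp in cKO14, 0.239 CPM, stood apart because the other 3 cKO libraries had no read. For normally spread values, chance flags about 1 in 20 groups of this size. That rate does not hold for Dcstamp, where any read beside 3 values of 0 sets the flag. Tnfrsf11a rests on 25 reads in cKO7 and Dcstamp on 11 reads in cKO14.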

How the results depend on the processing

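Counts of calls over all genes varied widely between settings, while edgeR called none of the 7 tested genes in any setting. Against 232 genes higher and 12 lower in cKO, DESeq2 called 1709 and 871, and scaling to mesenchymal transcripts 0 and 0 (160 and 11419 at an unadjusted p under 0.05). Without a filter 5 were lower. Leaving out 1 library gave between 0 and 816 higher and between 0 and 144 lower genes. The cause was not tested. Under mesenchyme scaling the log2 values of Ctnnb1 (−1.31), Acp5 (−0.59) and Ctsk (−0.17) turned negative, by the construction of that scaling. Il34 ranged from −0.75 without cKO14 to 0.57 without cHet8, the sole setting in which its sign turned. DESeq2 called Tnfsf11, Csf1 and Tnfrsf11a, as given above. Leaving out 1 library, adjusted p by edgeR ranged from 0.0697 to 0.376 for Tnfsf11, from 0.0962 to 0.418 for Csf1 and from 0.175 to 0.388 for Tnfrsf11a. The difference in the log2 ratio of Tnfsf11 to Tnfrsf11b ranged from 2.43 to 3.97 over these omissions. The exact p was 0.0286 without any 1 cHet library and 0.0571 without any 1 cKO library. These p-values come from 7 libraries in groups of unequal size and cannot be compared with the p over 70 assignments. In each omission every remaining cKO library still lay above every remaining cHet library. With a pseudocount of 5 it was 3 (exact p = 0.0286). The Csf1 to Il34 difference kept its sign, between 0.898 and 1.92. No paired analysis was possible because the columns carry none of the replicate numbers of the labels. Depth limits Tnfsf11, Il34, Dcstamp and Ocstamp, which have between 0 and 404 reads per library.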
